A study of Mus musculus with 12 samples.

Results

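Hemoglobin and heme genes were followed in whole mouse submandibular glands (SMG) profiled by RNA-seq, as 7 of the 56065 genes in the deposited table, taken by their symbols. These were the adult alpha globins Hba-a1 and Hba-a2, the adult beta globins Hbb-bs and Hbb-bt, the heme synthesis enzymes Alas2 and Alas1, and the heme-degrading enzyme Hmox1. Each of 12 libraries came from the gland of a mouse 8 weeks old, with 3 biological replicates for each sex of the C57BL/6J wild type (WT) and of C57BL/6J-Pou2f3 knockout (KO) mice. The KO line lacks POU2F3, the transcription factor that defines tuft cells, which are chemosensory cells of epithelia. The deletion is carried in every cell of the body, and the sources used here do not say whether WT and KO mice were littermates. Mice were killed by CO2 followed by exsanguination, and whole glands were frozen, so that the RNA of residual blood, vessels and connective tissue is included. The design compares KO with WT within each sex.

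Hemoglobin is a tetramer of alpha and beta globin chains, each of which holds a heme, and its mRNA is found mainly in red cell precursors and young red cells. Heme synthesis begins with the condensation of glycine and succinyl-CoA, catalysed by ALAS2 in the erythroid lineage and by ALAS1 in other cells, where heme itself lowers the amount of ALAS1. Heme oxygenase 1, the product of Hmox1, opens the heme ring to release iron, carbon monoxide and biliverdin, and it is abundant in macrophages that take up red cells.

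Total counts per library ranged from 47032175 to 67882207, and the limit that 0 counts leave, 3 counts, was 0.0442 to 0.0638 CPM, that is, counts scaled to a common library size. Pou2f3 itself had 0 to 3 counts in the KO libraries and 0 to 10 in the WT libraries, too few to check the genotype labels. Every duct and acinar marker gene found in the deposited table had at least 1 count in all 12 libraries. Single acinar genes stood far apart between libraries, also within groups. Bpifa2 had 125303 counts in KO male replicate 2 and 6 in replicate 3. Muc19 had 518166 in WT male replicate 3 and 231 in replicate 2, and Smgc had 1 to 149266 over all libraries. Library sizes were adjusted by the trimmed mean of M-values (TMM), and a normalized count is a count divided by the adjusted library size relative to its mean over the 12 libraries. A gene is called at an adjusted p under 0.05 in edgeR's quasi-likelihood test, adjusted by the Benjamini-Hochberg method over the 17893 genes tested. The p-values rest on the spread between mice of a group. In males 42 genes were called with all libraries and 635 without KO male replicate 1.

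The members of each globin pair are hard to tell apart by sequence, which bears on how their reads were assigned. In GRCm39 with the Gencode M39 annotation, Hba-a1 lies at chr11:32233186-32234504 and Hba-a2 at chr11:32246168-32247320, both on the plus strand, and their coding sequences of 426 bases are identical at 425 positions. Hbb-bs at chr7:103475730-103482989 and Hbb-bt at chr7:103461727-103465047, both on the minus strand, share 440 of 441 coding bases. The stretches that hold the single difference are given from the transcripts of Gencode M39, 5′ to 3′ on the coding strand, with the differing base in capitals.
Hba-a1, exon 3, chr11:32234318-32234377: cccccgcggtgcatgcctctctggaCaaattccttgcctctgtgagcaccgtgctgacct
Hba-a2, exon 3, chr11:32247135-32247194: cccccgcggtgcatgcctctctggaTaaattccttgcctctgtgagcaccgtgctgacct
Hbb-bs, exon 3, chr7:103475875-103475924: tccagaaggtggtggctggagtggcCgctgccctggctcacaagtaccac
Hbb-bt, exon 3, chr7:103461866-103461915: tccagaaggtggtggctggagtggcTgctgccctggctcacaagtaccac
The differences are C381T in the alpha pair and C417T in the beta pair, counted from the first base of the start codon and written as the base of the first gene, the position and the base of the second. Of all coding windows of 100 bases, the length of 1 read, 85.9% of those of Hba-a1 occur unchanged in Hba-a2, and 92.7% of those of Hbb-bs occur unchanged in Hbb-bt. Over whole transcripts, to which reads were assigned, these shares were 70.1% and 58.6%. Each pair was therefore also summed into 1 row, which does not depend on how reads were split. Alas1 (chr9:106110642-106135734, minus strand) and Alas2 (chrX:149330371-149353634, plus strand) are 63.0% identical over their aligned coding sequences and share 0 such windows, so their counts can be told apart. Hmox1 lies at chr8:75820241-75827217 on the plus strand.

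Globin counts were low in every library and highest in the KO males. Whether the library kit also removed globin RNA is not given in the sources used here. Such a step would set the globin level in all libraries, so that the low counts need not be the level in the gland. Alas2 counts were 1.30 (WT male replicate 2) to 7.09 (WT female replicate 2) times the globin counts. Summed over Hba-a1, Hba-a2, Hbb-bs and Hbb-bt, there were 15, 11 and 32 counts in WT females, 9, 15 and 11 in KO females, 18, 53 and 16 in WT males and 58, 189 and 179 in KO males (replicates 1, 2 and 3 in each). The 3 KO males were the 3 highest libraries, although KO male replicate 1, at 58, was close to WT male replicate 2, at 53. As a share of all counts, the lowest value was 0.168 CPM in WT female replicate 2 (exact 95% binomial interval 0.0839 to 0.301) and the highest 3.61 CPM in KO male replicate 2 (3.12 to 4.17). For KO male replicate 1 the share was 1.17 (0.888 to 1.51) and for WT male replicate 2 it was 0.781 (0.585 to 1.02), so that these intervals overlap. The intervals cover counting error only. The other 6 globin genes of the list, Hba-x, Hbb-y, Hbb-bh1, Hbb-bh2, Hbq1a and Hbq1b, had 0 counts in all 12 libraries.

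The alpha globins are described first by gene and then as a sum. Hba-a1 had 5, 6 and 7 counts in WT females, 6, 0 and 0 in KO females, 7, 30 and 0 in WT males and 15, 60 and 43 in KO males. Hba-a2 had 0, 0 and 8 counts in WT females, 0, 10 and 7 in KO females, 0, 0 and 7 in WT males and 18, 45 and 66 in KO males. Within single libraries a count of 0 for one gene of the pair stood beside up to 30 for the other, while over all libraries the genes had 179 and 161 counts. The normalized alpha sum was 12 ± 9.25 (SD, n = 3) in WT females, 8.43 ± 1.40 in KO females, 11.9 ± 11 in WT males and 76.0 ± 39.2 in KO males. KO male libraries, at 30.8 to 99.0, did not overlap with the WT males, at 5.38 to 24.6. In KO against WT males the alpha sum differed by 2.66 ± 0.65 on the log2 scale (SE), with an adjusted p of 0.123 in edgeR's quasi-likelihood test, which is not a call. It was called without KO male replicate 1 (3.04, adjusted p = 0.0255), with no filter on low counts (0.00954) and with DESeq2 (0.00593). In females the difference was -0.45 ± 0.76, with an adjusted p of 0.673. The alpha sum did not pass the filter on low counts in a fit of the WT libraries only or of the female libraries only, and was tested through the KO males, in which it was highest, so that its calls have no weight of their own. The female effect minus the male effect was -3.12 ± 0.995, past the threshold with an adjusted p of 0.0370, in a comparison that called 25.7% of all genes (13.4% with a positive and 12.4% with a negative value). The call was lost without any 1 of 7 libraries, KO female replicate 1 or 3, KO male replicate 2 or 3, WT female replicate 3 or WT male replicate 1 or 3 (adjusted p of 0.0636 to 0.121).

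The beta globins gave a like picture, with most counts on 1 of the genes. Hbb-bs had 9, 5 and 16 counts in WT females, 3, 4 and 4 in KO females, 10, 23 and 9 in WT males and 24, 76 and 63 in KO males. Hbb-bt had 0 or 1 count in the 9 libraries of the other groups and 1, 8 and 7 in KO males, and it took 7.52% of the counts of the pair over all libraries. The normalized beta sum was 14.4 ± 9.96 in WT females, 4.42 ± 0.83 in KO females, 11.6 ± 6.34 in WT males and 55.2 ± 28.6 in KO males (SD, n = 3). In normalized counts the groups of each sex did not overlap. KO female libraries lay at 3.46 to 4.96 against 6.48 to 25.6 in WT females. KO male libraries lay at 23.3 to 78.7 against 7.42 to 18.9 in WT males. The female separation rests on 3 to 5 counts per KO library and on the adjusted library sizes. KO female replicate 2 and WT female replicate 2 both had 5 counts. As a share of all counts the female groups overlapped, at 0.0619 to 0.0850 CPM in KO and 0.0764 to 0.277 in WT. In females the beta sum differed by -1.65 ± 0.69 on the log2 scale with an adjusted p of 0.0764, and in males by 2.24 ± 0.57 with an adjusted p of 0.130 (edgeR), so that neither was called. The female difference was called without WT female replicate 2 (-2.05, adjusted p = 0.0448) and the male one without KO male replicate 1 (2.61, adjusted p = 0.0241), with no filter on low counts (0.0277) and with DESeq2 (0.0165). The difference of these effects was -3.89 ± 0.89 and was called, with an adjusted p of 0.00984. Hbb-bs and the beta sum passed the filter on low counts also in a fit of the WT libraries only, though not of the female libraries only. Hba-a1 and Hba-a2 did not pass it there, and were tested through the KO male libraries, in which they were highest, so that their calls have no weight in a count. Hbb-bt did not pass the filter.

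Alas2, the erythroid first enzyme of heme synthesis, was highest in the KO males, as the globins were. Its counts were 78, 78 and 101 in WT females, 55, 96 and 51 in KO females, 91, 69 and 93 in WT males and 121, 419 and 301 in KO males. KO male replicates 2 and 3 stood far above the remaining 10 libraries, and KO male replicate 1, at 113 normalized counts, lay below WT female replicate 3, at 152. The means were 114 ± 34, 73.3 ± 17.2, 67.8 ± 10.2 and 260 ± 140 normalized counts (SD, n = 3), in the same order of groups. In KO against WT males Alas2 was 3.83-fold higher, or 1.94 ± 0.38 on the log2 scale, with an adjusted p of 0.0703 in edgeR that is not a call. It was called without KO male replicate 1 (2.30, adjusted p = 0.00286) and with DESeq2 (7.3e-05), and without KO male replicate 2 the difference was 1.51 (adjusted p = 0.367). In females it differed by -0.62 ± 0.38 (adjusted p = 0.225). The difference of the effects, -2.56 ± 0.54, was called with an adjusted p of 0.00715, and it was called in each of the 20 alternative settings tried.

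**Figure D1:**
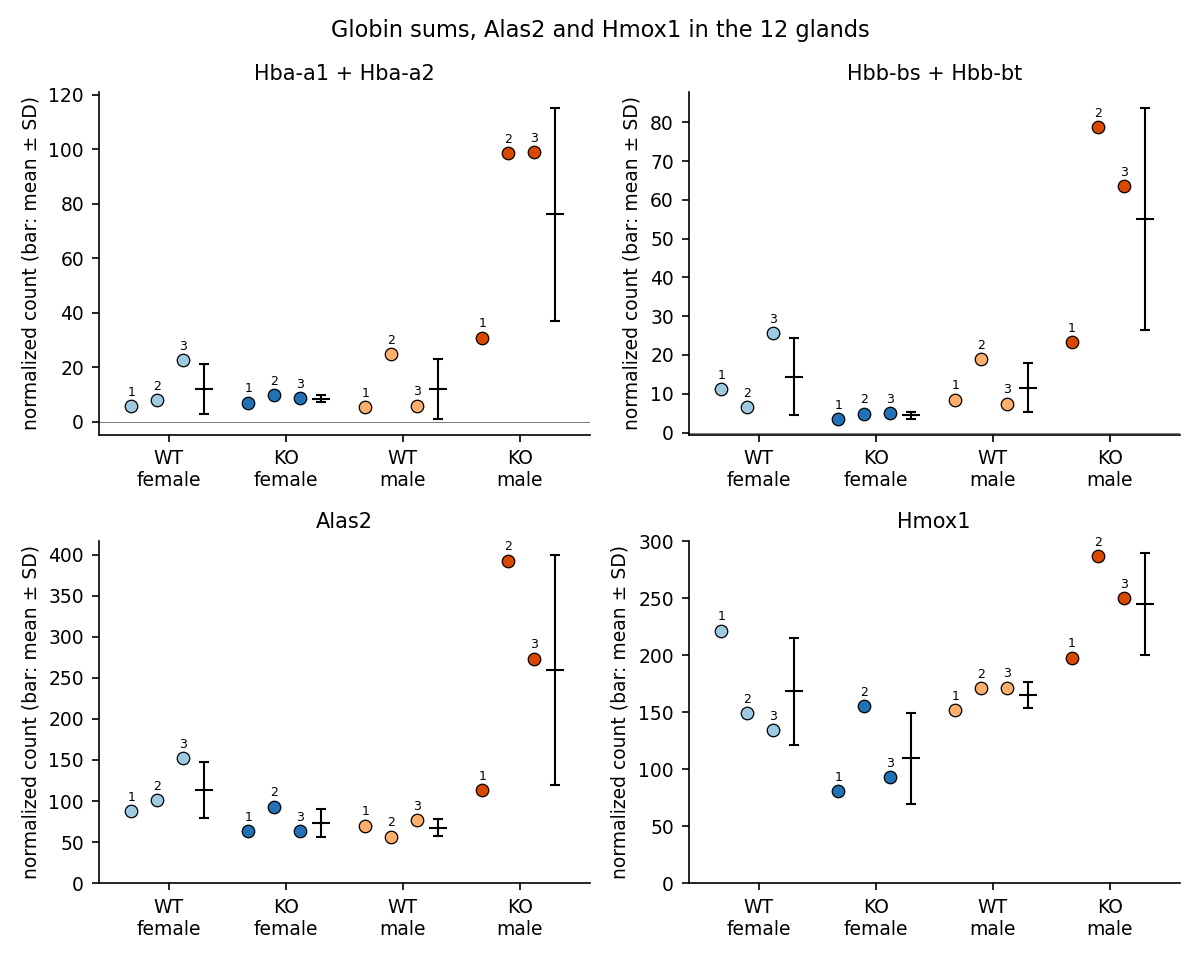
Normalized counts (y axis) of the alpha globin sum, the beta globin sum, Alas2 and Hmox1 in the 4 groups (x axis), with 1 point per library labelled by its replicate number and a bar for the mean ± SD of 3 libraries. KO male replicates 2 and 3 are the highest libraries for both globin sums and Alas2, and KO male replicate 1 lies between them and the WT males.

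Between the sexes, the globin sums and Alas2 were called in KO and not in WT glands. In KO glands the males exceeded the females for the alpha sum by 3.15 ± 0.69 on the log2 scale (edgeR adjusted p = 0.00278), for the beta sum by 3.60 ± 0.65 (adjusted p = 0.000713) and for Alas2 by 1.82 ± 0.38 (adjusted p = 0.00201). All 3 KO males lay above all 3 KO females for each of these, and the alpha sum was tested because of its level in the KO males. In WT glands the corresponding differences were 0.03 ± 0.71, -0.29 ± 0.60 and -0.74 ± 0.38, with adjusted p-values of 0.980, 0.733 and 0.147, and the libraries of the sexes overlapped for both globin sums. For Alas2 they did not overlap in normalized counts, with all 3 WT males (56.7 to 76.7) below all 3 WT females (87.7 to 152), the opposite order to KO. As a share of all counts they did overlap, at 1.02 to 1.80 CPM in WT males and 1.15 to 1.65 in WT females. Of the 6 members tested, 5 were called between the sexes in KO, all higher in males, where 43.5% of all genes were called (23.2% higher and 20.3% lower in males). Of these 5, Hba-a1 was tested because of its level in the KO males and has no weight in this count; the others were Hbb-bs, Alas2, Alas1 and Hmox1. In WT 0 members were called by edgeR, where 36.5% of all genes were (20.5% higher and 16% lower in males). There 0 members had an unadjusted p under 0.05, and DESeq2 and limma called 0. This does not test whether the sex difference itself differs between genotypes, which is the difference of the genotype effects given for each gene. The tested member not called in KO was Hba-a2, at 2.65 ± 1.14 with an adjusted p of 0.0758.

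**Figure D2:**
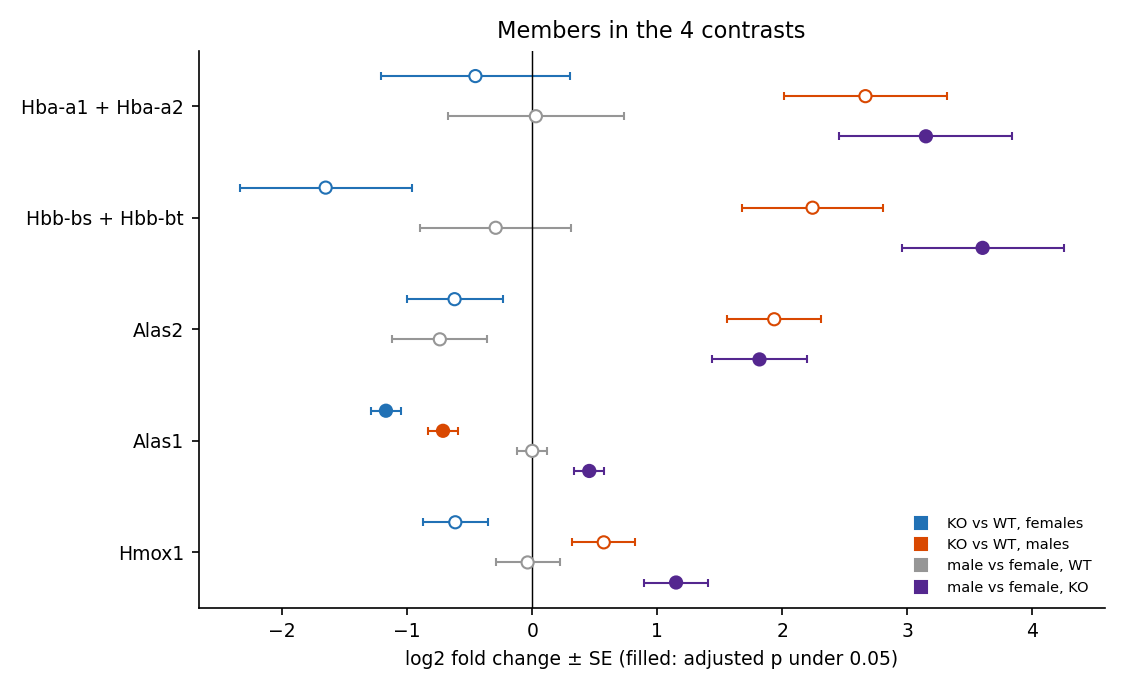
Log2 fold change ± SE (x axis) of the globin sums, Alas2, Alas1 and Hmox1 (y axis) in the 4 contrasts, with a filled symbol for an adjusted p under 0.05 in edgeR. The purple symbols (male against female in KO) are filled for all 5 rows, from 0.46 for Alas1 to 3.60 for the beta sum, and only Alas1 is filled in KO against WT.

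Markers of red cells and of other cells were read beside the globins. In bulk tissue, fewer cells of a type and less RNA per cell cannot be told apart. Of 22 red cell markers, 8 were expressed highly enough to be tested. In KO against WT males 0 of these were called by edgeR, where 0.235% of all genes were, and 0 by DESeq2. An unadjusted p under 0.05 in edgeR was found for 1 of the 8, against 2056 of 17893 genes. Their median difference was 0.41, against -0.04 over all genes. Without KO male replicate 1, 0 of 10 red cell markers tested were called by edgeR, with 3 higher at an unadjusted p under 0.05. In that fit 635 of 18575 genes were called in either direction. Slc4a1, the anion exchanger of the red cell membrane, had 11, 20 and 20 counts in WT males and 24, 54 and 64 in KO males, with replicates 2 and 3 high as for the globins. Several genes of red cell precursors were at or near 0 in every library, with at most 1 count for Ahsp, Gata1 and Rhag and 0 for Car1 and Cldn13. The summed level of the list was 1357 to 1827 normalized counts in WT males and 1544 to 1648 in KO males, which overlapped, but most of it was Sptb, a spectrin gene, at 1015 ± 226 in WT males and 917 ± 198 in KO males.

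Other markers were high in the same libraries. Pf4, a platelet chemokine that some macrophages also make, had 56, 76 and 65 counts in WT males and 89, 223 and 182 in KO males. Cd163, the macrophage receptor for hemoglobin bound to haptoglobin, had 365, 343 and 305 counts in WT males and 355, 1006 and 1047 in KO males. In both, KO male replicates 2 and 3 were high and replicate 1 lay near the WT males in counts not adjusted for library size. The adjusted library size of KO male replicate 1 was 61989700, against 70112200 to 75210300 in the WT males. Scaled by these sizes, KO male replicate 1 lay above each of the WT males for both genes. The summed platelet list reached 229 to 455 normalized counts in KO males against 128 to 171 in WT males, most of it Pf4 and Itga2b, while Gp5 had 58, 62 and 38 counts in WT males and 49, 28 and 22 in KO males. Of the 3 platelet genes tested 0 were called (edgeR; 2 higher at an unadjusted p under 0.05 and by DESeq2). The macrophage list summed to 8714 to 15523 against 6848 to 7986. Of the macrophage list 0 of 13 genes tested were called in males by edgeR, 9 had an unadjusted p under 0.05, all higher in KO, and 1 was called by DESeq2; over all genes 2056 of 17893 had such a p. Without KO male replicate 1, 6 of 14 were called higher, and 635 of 18575 genes were called in either direction. The macrophage list was as high in WT female replicate 1, at 18457, a library with 15 globin counts.

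The endothelial list was not higher in KO males: its sum was 2053 to 2622 there and 2579 to 3409 in WT males. Within KO males it was lowest in replicate 1, at 2053, with 2622 and 2535 in replicates 2 and 3, the order of the globin counts. In males 0 of its 12 genes were called by edgeR, as for the globins, where 0.235% of all genes were called. At an unadjusted p under 0.05 there were 3 lower, against 2056 of 17893 genes in either direction, and DESeq2 called 1 lower. The neutrophil list summed to 192 to 275 normalized counts in KO males and 83.8 to 159 in WT males, most of it Mmp9, at 170 ± 21 and 93.9 ± 28.2. S100a8, S100a9, Ngp, Elane and Mpo, which define neutrophils or their precursors, had 0 to 3 counts in every library, and 0 of 3 genes tested were called (edgeR; 2 higher at an unadjusted p under 0.05, and 1 by DESeq2). Plin1, a coat protein of fat droplets, had 6.92, 4.11 and 6.60 normalized counts in WT males, 18.7, 432 and 177 in KO males and 22.5, 36.3 and 393 in WT females. Its 3 highest libraries were thus KO male replicates 2 and 3 and WT female replicate 3, and WT female replicate 3 was also the highest of its group for both globin sums and for Alas2. Between KO males and KO females, where the globin sums, Alas2 and Hmox1 were called, 5 of 8 red cell, 2 of 3 platelet and 6 of 13 macrophage genes tested were called higher in males and 1, 0 and 0 lower, against 23.2% and 20.3% of all genes. Of the other lists of cell types, 0 of 12 endothelial and 0 of 9 acinar genes tested were called higher in males and 8 and 6 lower. For duct, neutrophil and skeletal muscle genes 8 of 10, 1 of 3 and 1 of 2 were called higher and 1, 0 and 1 lower. For the difference of the genotype effects 1 of 8 red cell, 1 of 3 platelet and 8 of 13 macrophage genes had a called negative value and 1, 0 and 1 a positive one, against 12.4% and 13.4% of all genes. The endothelial, acinar, duct, neutrophil and skeletal muscle lists had 0 called values there. The part of other cells in the globin, Alas2 and Hmox1 differences was not tested. These marker genes were chosen for naming after their values had been seen.

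**Figure D3:**
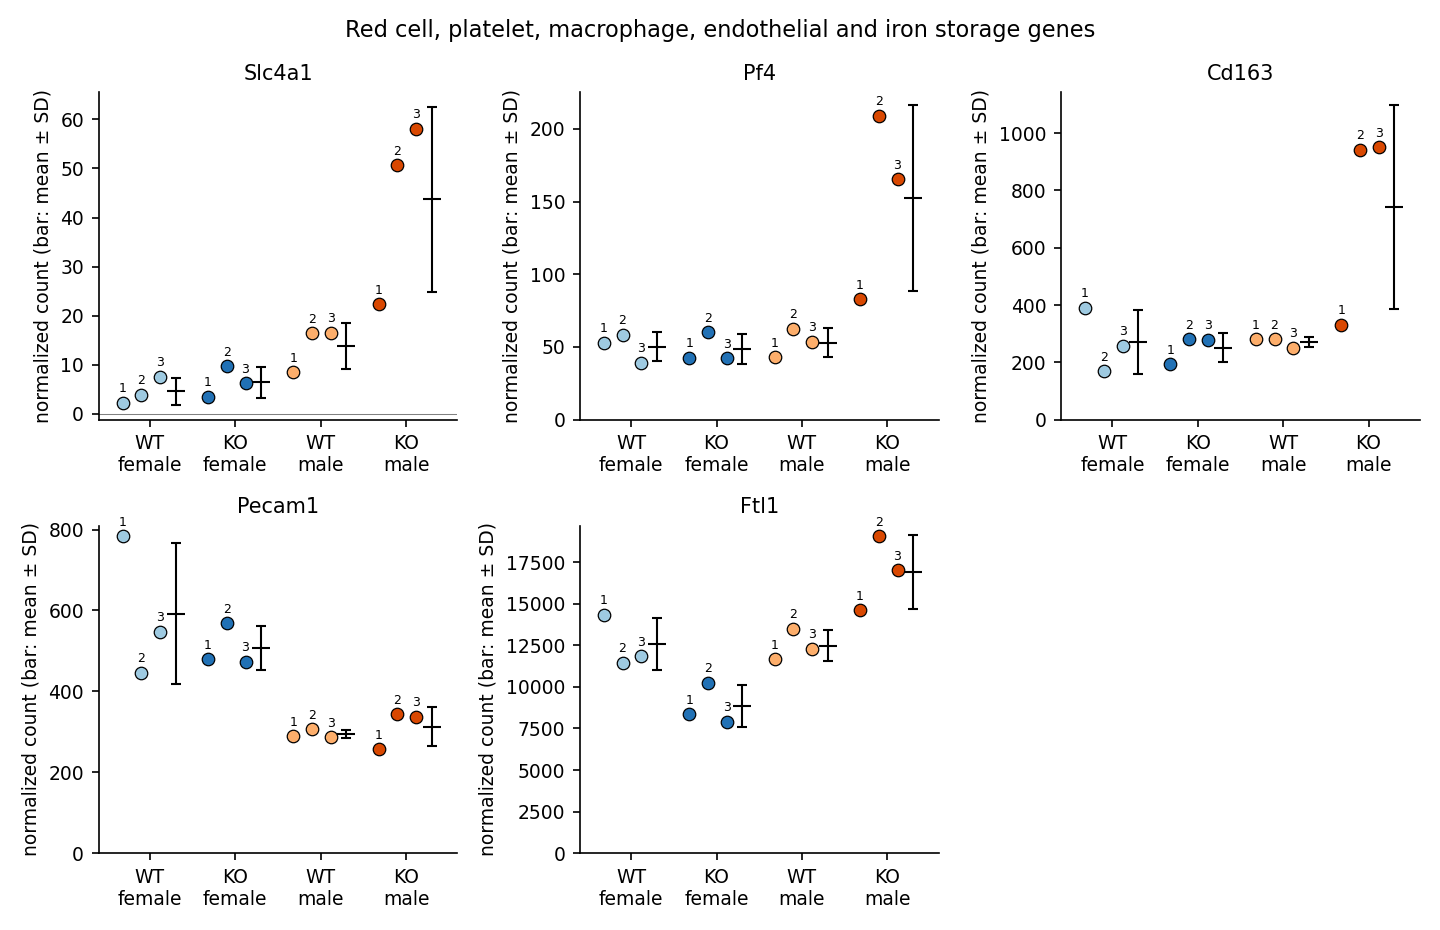
Normalized counts (y axis) of the red cell gene Slc4a1, the platelet gene Pf4, the macrophage receptor Cd163, the endothelial gene Pecam1 and the ferritin gene Ftl1 in the 4 groups (x axis), with 1 point per library and a bar for the mean ± SD. Slc4a1, Pf4 and Cd163 are highest in KO male replicates 2 and 3, whereas Pecam1 is highest in WT female replicate 1.

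Alas1, the first enzyme of heme synthesis outside the erythroid lineage, was lower in KO glands of both sexes. Its counts were 3568, 3862 and 2781 in WT females, 1889, 1776 and 1588 in KO females, 6010, 5337 and 5101 in WT males and 3118, 2502 and 3087 in KO males. In normalized counts the 6 WT libraries lay between 4011 and 5008 and the 6 KO libraries between 1723 and 2908, so that the genotypes did not overlap. The means were 4403 ± 531 in WT females, 1957 ± 229 in KO females, 4403 ± 208 in WT males and 2685 ± 299.3 in KO males (SD, n = 3). The KO level was 0.444 of the WT level in females, a fall by 1.17 ± 0.12 on the log2 scale with an adjusted p of 0.000132 in edgeR. In males it was 0.610 of the WT level, a fall by 0.71 ± 0.12 with an adjusted p of 0.0297. Alas1 was the only one of the 6 members tested that was called in females, where 36.9% of all genes were called (17.6% higher and 19.3% lower in KO). It was also the only one called in males, where 0.235% of all genes were called (0.101% higher and 0.134% lower).

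The male call of Alas1 was close to the threshold. It was lost in 7 of the 15 alternative settings, among them the replicate block (-0.72, adjusted p = 0.0546), a fit of the male libraries only (-0.69, adjusted p = 0.0559) and the fits without KO male replicate 2 or 3 or without any 1 of the 3 WT males (adjusted p of 0.0878 to 0.207). The fall itself stayed between 0.62 and 0.77 on the log2 scale in all 15. The female call held in each of its 15 settings. WT females and WT males differed by 0.00 ± 0.12 in Alas1 (adjusted p = 1.00), with an interval of 2 SE from -0.24 to 0.24. KO males exceeded KO females by 0.46 ± 0.12 (adjusted p = 0.00830), a call that was lost with upper-quartile scaling (0.29, adjusted p = 0.0540) and with limma on the deposited normalized values (0.26, adjusted p = 0.0804). The female effect minus the male effect was -0.46 ± 0.17, which was not called (adjusted p = 0.0633) but was called in 7 of 20 alternative settings, among them DESeq2 (-0.50, adjusted p = 0.0253) and the fits without KO female replicate 1 (0.0315), KO male replicate 2 (0.0446) or WT female replicate 1 (0.0188).

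Per kilobase of the canonical transcript, Alas1 was the most abundant of the 7 genes in each group. The place of the globins in this order depends on whether the kit removed globin RNA, which is not given. It stood at 1290 ± 156 normalized counts per kilobase in WT females and 787 ± 87.7 in KO males, against 55.8 ± 16.7 and 127 ± 68.9 for Alas2. Hmox1 stood at 107 ± 29.6 and 155 ± 28.4 in these groups, so that Alas2 and Hmox1 in KO males did not differ beyond their spread. Hbb-bs stood at 20.4 ± 14 in WT females and 75.7 ± 37.9 in KO males, where it was within 1 SD of Alas2. Among the globins in KO males, Hba-a1 at 49.3 ± 28.8, Hba-a2 at 61.2 ± 33.5 and Hbb-bs at 75.7 ± 37.9 lay within 1 SD of each other, and Hbb-bt at 7.0 ± 4.98 was below them.

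Alas1 was read beside the genes of the circadian clock, since its transcription is known to vary over the day in several tissues. The clock works as a loop in which BMAL1 with CLOCK or NPAS2 drives its own repressors and output factors such as DBP. Of 19 clock genes, 3 were called higher and 13 lower in KO females, where 17.6% of all genes were called higher and 19.3% lower. In KO males 3 were called higher and 9 lower, where 0.101% of all genes were called higher and 0.134% lower. Bmal1 rose from 50.1 ± 8.42 to 549 ± 91.0 normalized counts in females and from 70.6 ± 5.35 to 517 ± 122.8 in males. Npas2, a heme-binding partner of BMAL1, rose from 32.1 ± 3.52 to 369 ± 69.2 in females and from 27.3 ± 4.18 to 254 ± 37.0 in males. Dbp, a clock output factor, fell from 5254 ± 967 to 881 ± 191 in females and from 2583 ± 116 to 286 ± 54.4 in males. Bhlhe41, a clock repressor, fell by 1.84 ± 0.11 on the log2 scale in females and by 0.85 ± 0.11 in males (adjusted p of 2.04e-06 and 0.00413), with a called difference of the effects of -1.0 ± 0.15 (adjusted p = 0.00312). The hour at which glands were taken is not given in the sources used here, so that time of day and genotype cannot be told apart.

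**Figure D4:**
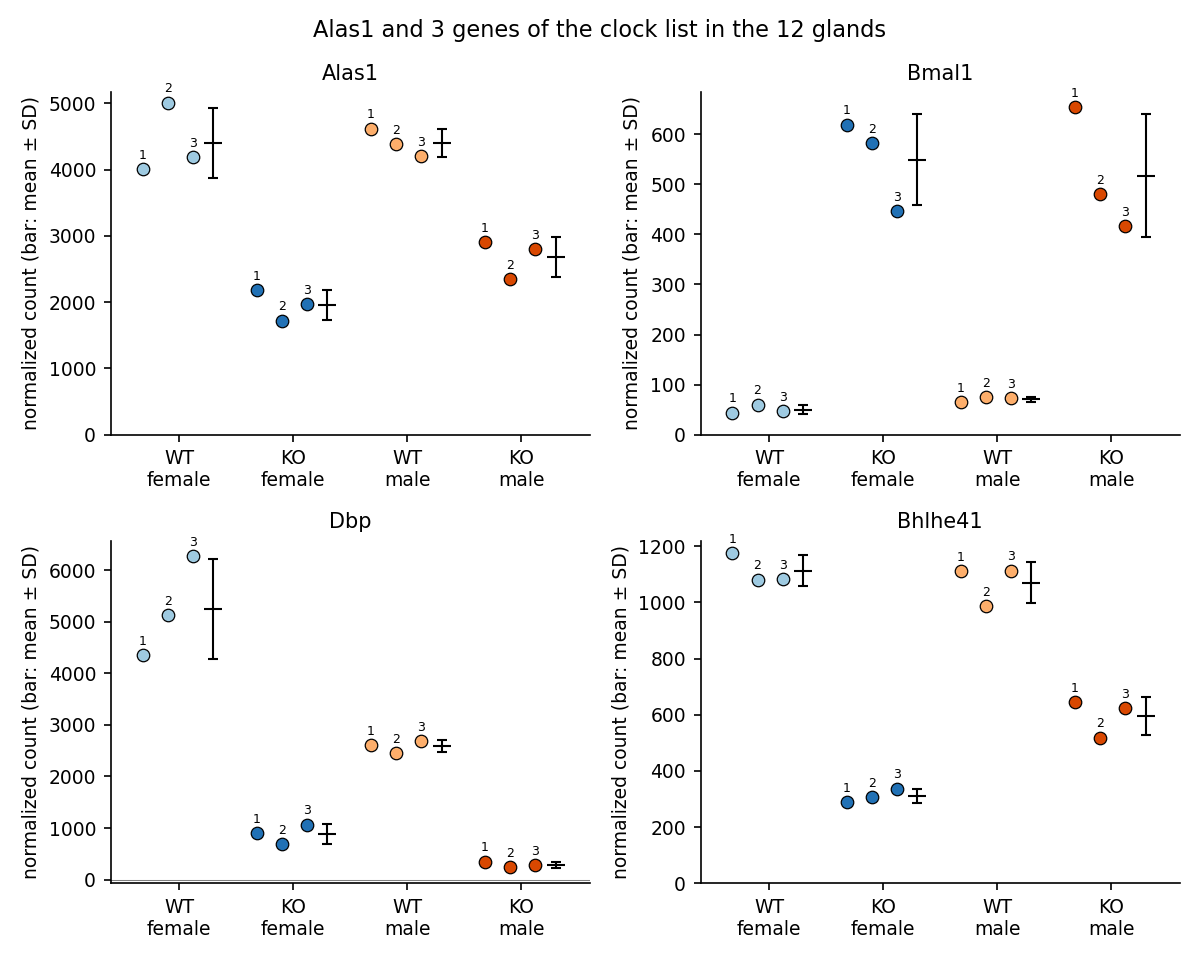
Normalized counts (y axis) of Alas1 and of the clock genes Bmal1, Dbp and Bhlhe41 in the 4 groups (x axis), with 1 point per library labelled by its replicate number and a bar for the mean ± SD. In each panel the 3 KO libraries of a sex lie apart from its 3 WT libraries, and the KO females are lower than the KO males for Alas1 and Bhlhe41 and higher for Dbp.

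By Pearson r of log2 CPM over the 12 libraries, Bhlhe41 was also the gene most like Alas1, at 0.96, followed by Eif4h, Myo1c, Usp2 and Cpeb3, at 0.95 to 0.96. Within groups the correlation of Alas1 with Bhlhe41 was 0.20 and with Usp2 0.33, against 0.75 for Eif4h. The genes most like the alpha sum were Mrap, Penk, Pkig, Bloc1s4 and Gm7488 (0.88 to 0.94), and those most like the beta sum were Alg12, Penk, Tsc22d3, Ppp2r5a and Ifngr1 (0.90 to 0.93). For Alas2 they were S100a10, Plin1, Angptl4, Serpinh1 and S100a4 (0.90 to 0.91), with 0.91 for Plin1 within groups. These correlations describe libraries that share their group means.

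Clock genes were listed apart, and of these Dbp, Tef and Hlf were called lower and Bmal1 and Npas2 higher in KO glands of both sexes. On the list of Alas1 regulators, which held no clock genes, no gene was called lower. Of 8 listed, 6 were tested, and in females 2 were called higher and 0 lower (edgeR; 4 higher and 0 lower at an unadjusted p under 0.05, and 2 higher and 0 lower by DESeq2), where 17.6% of all genes were called higher and 19.3% lower, and 8290 of 17893 had an unadjusted p under 0.05. The coactivator gene Ppargc1b rose by 1.15 ± 0.18 on the log2 scale in females, from 203 ± 44.1 to 453 ± 59.0 normalized counts. Nr1i2, which encodes the xenobiotic receptor PXR, rose by 1.96 ± 0.32, from 8.29 ± 3.54 to 33.6 ± 8.13. In males, where 0.235% of all genes were called, 0 of the 6 were called by edgeR and 0 by DESeq2. An unadjusted p under 0.05 was found for 1, against 2056 of 17893 genes.

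Stretches before the transcription start are given for genes that moved together or apart. Promoter windows, from 250 bases before to 50 after a RefSeq start (GRCm38.p6), were found for 6 of the 7 members, with 7 windows in all, and each window shown was placed in GRCm39 by an exact match (for Hba-a1 the match nearest to the gene). They are printed 5′ to 3′ on the gene's strand, with motif matches on either strand in capitals.
Hba-a1, chr11:32233572-32233601: agcacaaaccagCCAATgagaactgctcca
Hbb-bs, chr7:103477206-103477235: cgtagagccacaccctggtaagggCCAATc
Hbb-bt, chr7:103463201-103463230: ctgcagggtaacaccctggcATTGGCCAAT
Alas2, chrX:149330318-149330370: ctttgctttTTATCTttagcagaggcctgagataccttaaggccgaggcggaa
Alas1, chr9:106125105-106125134: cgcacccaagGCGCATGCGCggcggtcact
In the globins the capitals mark CCAAT, which 37.4% of the 32851 promoter windows in the table hold, and in Hbb-bt a match on each strand lies side by side. In Alas2 they mark the GATA site AGATAA on the other strand, which 11.2% of windows hold. In Alas1 they mark a pair of overlapping matches to the NRF1 core GCGCANGC, 1 on each strand, which 9.95% of windows hold. The Alas1 stretch comes from the second of 2 windows of this gene. All 30 bases of the Hba-a1 and Alas1 stretches, 17 of Hbb-bs and 3 of Hbb-bt lie in annotated exons of transcripts that start farther upstream, and 0 of Alas2. The Alas1 windows held no E-box CACGTG, D-box TTATGNAA or AGGTCA, the core of ROR and REV-ERB sites, which 7.15%, 3.38% and 16.3% of windows hold. The windows of Hba-a1 and Hba-a2 share an identical run of 297 bases, whereas the longest run shared by those of Hbb-bs and Hbb-bt is 14 bases. Some motifs also lay outside the stretches shown, so that the marked ones do not set the genes apart. The Hbb-bs window also held the GATA site. CCACCC, which 31.5% of windows hold, lay in those of Hba-a1, Hba-a2, Hbb-bt, Alas2 and Alas1. TATAAA, which 13.6% hold, lay in those of Hbb-bt and Alas2. A match describes letters in the window and is not evidence of binding.

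Of 9 genes of the heme synthesis pathway, 4 were called lower, 1 higher and 4 not called in KO females, where 36.9% of all genes were called. In males, where 0.235% of all genes were called, Alas1 alone was called. The female median was -0.37, against 0.03 over all genes, and the male median was -0.01, against -0.04. Besides Alas1, Cpox, the coproporphyrinogen oxidase, fell by 0.69 ± 0.09 on the log2 scale in females (adjusted p = 0.000249), from 1391 ± 42.6 to 860 ± 7.91 normalized counts. Ppox, the enzyme of the next step, rose by 1.32 ± 0.17 (adjusted p = 0.000297), from 278 ± 58.6 to 696 ± 79.7. Fech, which inserts the iron, fell by 0.28 ± 0.09 (adjusted p = 0.0267). In males Cpox, Ppox and Fech had adjusted p-values of 0.894 or more.

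Of 10 carriers and assembly factors that serve heme synthesis, 6 were called lower, 0 higher and 4 not called in KO females, where 19.3% of all genes were called lower (edgeR; 7 lower and 0 higher at an unadjusted p under 0.05 and by DESeq2), with a median of -0.66. Glrx5, a glutaredoxin for iron-sulfur clusters, fell from 1267 ± 116 to 646 ± 62.8 normalized counts, a fall by 0.97 ± 0.12 on the log2 scale. Tmem14c, a carrier of porphyrin precursors into the mitochondrion, fell by 0.85 ± 0.12. Slc25a39, a mitochondrial carrier of glutathione, fell by 0.78 ± 0.12. In males, where 0.235% of all genes were called, 0 of the 10 were called by edgeR and 0 by DESeq2. At an unadjusted p under 0.05 there was 1 higher, against 2056 of 17893 genes in either direction.

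**Figure D5:**
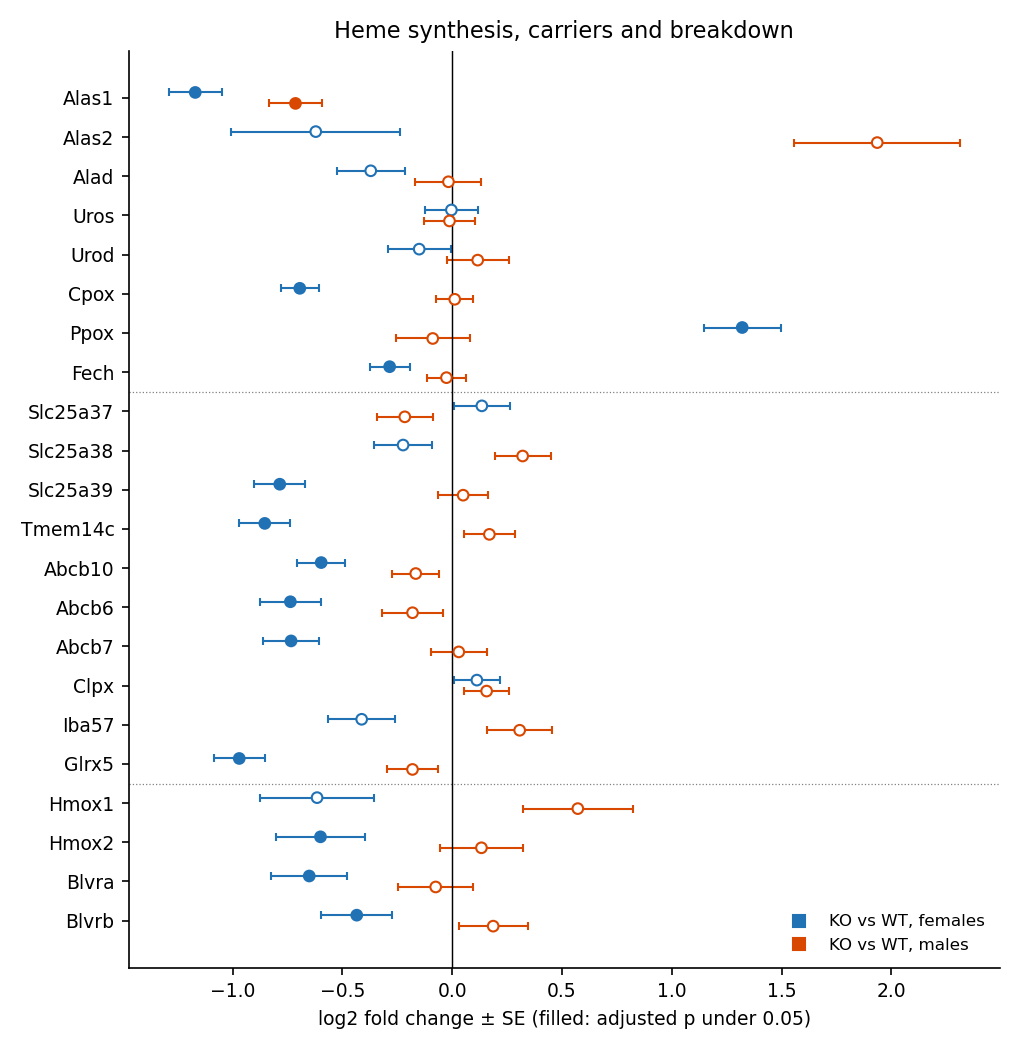
Log2 fold change ± SE in KO against WT (x axis) of 8 genes of heme synthesis, of its carriers and regulators, and of heme breakdown (y axis, lists divided by dotted lines) in females (blue) and males (orange), filled for an adjusted p under 0.05. In females 3 of the 8, 6 of 10 and 3 of 4 genes drawn are called lower and Ppox is called higher, while in males Alas1 is the one filled symbol.

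Hmox1, the inducible heme oxygenase, moved in opposite directions in the sexes without a call in either. Its counts were 197, 115 and 89 in WT females, 70, 160 and 75 in KO females, 197, 208 and 208 in WT males and 212, 306 and 275 in KO males. In normalized counts KO females, at 80.8 to 155, overlapped with WT females, at 134 to 221, whereas KO males, at 198 to 287, lay above WT males, at 151 to 172. The difference was -0.62 ± 0.26 on the log2 scale in females (adjusted p = 0.0819) and 0.57 ± 0.25 in males (adjusted p = 0.409). The difference of these effects, -1.19 ± 0.36, was called (adjusted p = 0.0316), but the call was lost without any 1 of 6 libraries, KO female replicate 1 or 3, KO male replicate 2 or 3 or WT male replicate 1 or 3 (adjusted p of 0.0551 to 0.0771). In females Hmox1 was called without KO female replicate 2 (-1.0, adjusted p = 0.0092). KO males exceeded KO females by 1.15 ± 0.26 (adjusted p = 0.00320), and WT males and WT females differed by -0.04 ± 0.25 (adjusted p = 0.926). Of the 6 members tested 3 were called for a difference of genotype effects, in which 25.7% of all genes were called: Hbb-bs, at -3.82 ± 0.89 (adjusted p = 0.0107), Alas2 and Hmox1.

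The other 3 heme breakdown genes fell in females, where 19.3% of all genes were called lower. Blvra, biliverdin reductase A, fell from 288 ± 9.33 to 183 ± 16.1 normalized counts (a fall by 0.65 ± 0.17 on the log2 scale, adjusted p = 0.0111). Hmox2, the constitutive heme oxygenase, fell by 0.60 ± 0.20 (adjusted p = 0.0353) and Blvrb by 0.43 ± 0.16 (adjusted p = 0.0494), both close to the threshold. In males, where 0.235% of all genes were called, 0 of the 4 genes of the list were called by edgeR, with only Hmox1 at an unadjusted p under 0.05 and 0 called by DESeq2. Of the macrophage list 3 of 13 genes tested were called lower and 1 higher in KO females. Its sum was 18457, 7009 and 9905 in WT females (replicates 1, 2 and 3) and 6302 to 9758 in KO females. The part of macrophages in the female falls was not tested.

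The gene most like Hmox1 over the 12 libraries was Ftl1, the ferritin light chain that stores iron, at r = 0.96, and 0.90 within groups. It had 11455 to 14346 normalized counts in WT females, 7904 to 10254 in KO females, 11655 to 13507 in WT males and 14592 to 19060 in KO males. KO females thus lay below WT females and KO males above WT males, with differences of -0.51 (adjusted p = 0.0162) and 0.44 (adjusted p = 0.250) on the log2 scale. Slc25a24, Pla2g7, Gnai2 and S100a6 followed, at 0.93 to 0.95.

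Of 13 iron handling genes 6 were called lower, 0 higher and 7 not called in KO females, where 19.3% of all genes were called lower (edgeR; 7 lower and 0 higher at an unadjusted p under 0.05 and by DESeq2), with a median of -0.38. Ncoa4, the ferritin cargo receptor, fell by 0.64 ± 0.11 on the log2 scale, Tfrc, the transferrin receptor, by 1.07 ± 0.20 and Aco1, the iron-responsive aconitase, by 0.41 ± 0.10. Of 9 tested genes of heme and hemoglobin uptake and export 4 were called lower, 0 higher and 5 not called (6 lower and 0 higher at an unadjusted p under 0.05; 4 and 0 by DESeq2). These were led by Slc48a1, a heme transporter, with a fall by 0.82 ± 0.10, Slc46a1, by 0.82 ± 0.16, and Pgrmc2, a heme chaperone, by 0.54 ± 0.11. In males, where 0.235% of all genes were called, 0 genes of both lists were called by edgeR, with 2 and 1 higher by DESeq2. At an unadjusted p under 0.05 there were 3 and 1 higher and 0 and 1 lower, against 2056 of 17893 genes in either direction.

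Of 12 regulators of Hmox1 and targets of NRF2, the factor that induces it, 5 were called lower, 0 higher and 7 not called in KO females, against 19.3% of all genes called lower (edgeR; the same counts at an unadjusted p under 0.05 and by DESeq2). Txnrd1, thioredoxin reductase, fell by 0.72 ± 0.10 on the log2 scale, Gclm, a subunit of the first enzyme of glutathione synthesis, by 0.70 ± 0.13, and Keap1, the NRF2 inhibitor, by 0.43 ± 0.09. In males, where 0.235% of all genes were called, 0 of 12 were called by edgeR and 0 by DESeq2. An unadjusted p under 0.05 was found for 0, against 2056 of 17893 genes.

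Among 27 tested genes of proteins that use or bind heme, 2 were called higher and 14 lower in females, where 17.6% of all genes were called higher and 19.3% lower. In males 1 was called higher and 3 lower, where 0.235% of all genes were called. The 4 called in males were Npas2, Nr1d2, Nr1d1 and Per2, all of which also stand in the clock list. In females Nr1d2 fell by 0.94 ± 0.10, and Sdhd, an anchor subunit of succinate dehydrogenase, by 0.84 ± 0.11, from 1785 ± 98.1 to 995 ± 94.2 normalized counts.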

How the data were processed

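Total RNA of whole SMG was depleted of ribosomal RNA (Illumina RiboZero, stranded, 100 ng) and sequenced in paired reads of 100 bases; the labels name polyA RNA, and the step that removes globin RNA in some such kits is not given in the sources used here. The authors made the estimated counts per gene with Salmon 1.10.1 against Gencode M35 and deposited them for 56065 identifiers, of which 55563 are in Gencode M39, used here for positions. The second deposited table holds normalized values, a signal that is each count divided by a factor, and how the authors made it is not stated in the sources used here. Of the deposited estimated counts 78.7% were whole numbers, and all were rounded to whole numbers.

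Library totals were 47032175 to 67882207 (median 54872739). Genes were kept with filterByExpr (17893 of them), scaled by TMM (factors 0.625 to 1.45) and tested with edgeR 4.0.16 in R 4.3.3 by its quasi-likelihood test, with 12 libraries, a mean per group and Benjamini-Hochberg adjustment over all genes tested. SE was derived from the log2 difference and its F statistic, and paralog sums came from a refit with the pair as 1 row. In simulated counts with 200 genes changed 3-fold in females, 98% were recovered. The changed genes were drawn from well expressed ones, and all genes were given the same fixed dispersion. The share recovered therefore does not describe genes with few counts or a wide spread, such as the globins. Alternatives were DESeq2 1.42.0, limma 3.58.1 on log2(normalized value + 1), other scalings and filters, a fit of the compared groups only, a replicate block and leaving out each library. Sequences were read with Python 3.11.15 and Biopython 1.88. Named genes were the members, up to 3 genes per list and sex with the smallest adjusted p under 0.05, and the 5 genes most like each member or sum; other names were chosen after their values were seen. The members and lists were chosen with earlier results of these data known. Single values of 2 genes of the lists are not reported here, although the genes enter the counts and sums of their lists.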

Additional observations from a re-analysis of the deposited data

Results flagged for a closer look

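The effect of the knockout differed between the sexes for Alas2, Hmox1, Hbb-bs and the beta globin sum, and passed the threshold for the alpha globin sum, in the test of the difference itself (edgeR's quasi-likelihood test, female minus male effect on the log2 scale). The difference was -3.82 for Hbb-bs, -3.12 for the sum of Hba-a1 and Hba-a2, -3.89 for the sum of Hbb-bs and Hbb-bt, -2.56 for Alas2 and -1.19 for Hmox1. In each of these the KO mean was below the WT mean in females and above it in males. For the globins the difference rests on 3 to 84 counts per library for the beta sum and 5 to 109 for the alpha sum. Hba-a1 and Hba-a2 taken singly were not called (adjusted p of 0.126 and 0.196), and both, like their sum, passed the filter on low counts through the KO males, so that the value of the alpha sum is a description. The call of the alpha sum was lost in 7 of 19 alternative settings and that of Hmox1 in 6 of 20.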

How the results depend on the processing

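Of the 6 members tested, the number called in KO against WT females was 1, and it was 2 with DESeq2, 2 with limma on the deposited normalized values and 1 to 2 when each library was left out in turn. In males it was 1, and it was 4 with no filter on low counts, 2 with at least 10 counts in every library, 0 with only the groups compared, 3 with DESeq2, 0 with the replicate block and 0 to 3 when a library was left out. For the difference of the genotype effects it was 3, with 4 by DESeq2, 5 by limma and 2 to 4 with a library left out, and between the sexes in KO it was 5, with 3 at 10 counts in every library, a filter that leaves no globin, and 4 to 5 with a library left out. Over all genes the calls in females numbered 6611, against 6975 with DESeq2, 6420 with limma and 4897 to 7071 with a library left out. For the difference of effects they numbered 4604, against 5539, 4187 and 2385 to 5562 in the same settings. Between the sexes in KO they numbered 7790, against 7126 of 14172 at 10 counts in every library and 6193 to 8255 with a library left out. Genes called in males over all genes numbered 42, against 389 with no filter, 406 with DESeq2, 635 without KO male replicate 1, 14 and 15 without KO male replicates 2 and 3, and 13, 25 and 13 without WT male replicates 1, 2 and 3. The replicate numbers did not pair the libraries (correlations of deviations from group means of -0.113 to 0.0501 in females and -0.135 to 0.0904 in males), and the replicate block gave 44 calls in males.

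Alas2 in males was called in 4 of 15 settings, with no filter (adjusted p = 0.000676), at least 10 counts (0.0467), DESeq2 (7.3e-05) and without KO male replicate 1 (0.00286); without KO male replicate 2 the difference was 1.51 (0.367). The alpha and beta sums in males were each called in 3 of 14 settings, and the alpha difference between the sexes in 12 of 19. Hmox1 in females was called with DESeq2, limma and without KO female replicate 2 (-1.0, adjusted p = 0.0092).

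Values that changed sign lay near 0 or rested on few counts. With a library left out the alpha sum in females ranged from -0.88 to 0.31, and the Hba-a2 difference of effects from -7.55 to 1.33. The others were sex differences in WT. Hba-a1 was -0.80 with limma and -1.48 to 0.91 with a library left out. Alas1 was 0.0039 with no filter, 0.0036 with at least 10 counts and -0.10 to 0.079 with a library left out. The alpha sum was -0.021 with RLE scaling, -0.061 with the upper quartile, -0.014 without the 20 most abundant genes, -0.035 with DESeq2, -0.048 with the replicate block, -0.24 with limma and -1.05 to 0.81 with a library left out. With a library left out Hba-a2 ranged from -4.89 to 4.05, Hbb-bs from -0.81 to 0.42, Hmox1 from -0.18 to 0.18 and the beta sum from -0.83 to 0.36. The cause of these changes was not tested. Upper-quartile scaling moved the median of all genes from 0.03 to 0.13 in females and from -0.02 to -0.18 between the sexes in KO. In all, 23 values changed sign. Of the remaining values, 528 kept their direction and their side of the threshold, 31 gained a call and 25 lost one. A further 4, from counts without the 20 most abundant genes, moved in value. Depth limits the globins, since several libraries hold 0 to 10 counts of each.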
